A study of Mus musculus with 8 samples.

Results

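The genes described here handle zinc and iron in the cell: the metallothioneins Mt1 and Mt2, the metal importer Slc39a14 (ZIP14), the zinc exporter Slc30a1 (ZnT1), the transferrin receptor Tfrc, the iron transporter Slc11a2 (DMT1), the ferritin subunits Fth1 and Ftl1, the iron exporter Slc40a1 (ferroportin) and the heme-degrading enzyme Hmox1. They are 10 of the 37074 genes named on the array, and their probes were found by the gene name that the array gives each probe. They have 18 of the 56605 probes, and 16 of these, from all 10 genes, were bright enough to be tested. Expression was measured in male C57BL/6J mice, 12 weeks old, 18 h after an intravenous injection of 100 μL. The 4 Co mice received saline, and the 4 Pg mice received sonicated Porphyromonas gingivalis, a bacterium of periodontitis, in saline. The labels print the dose as 108 CFU, and the methods write the last digit as an exponent of 10. The tissue was labelled brown adipose tissue, and each mouse had 1 one-color Agilent array.

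Metallothioneins are small, cysteine-rich proteins that bind zinc and copper, and their genes are switched on by zinc through the factor MTF1, by glucocorticoids and by inflammatory signals. Infection and endotoxin are known for moving zinc and iron out of the blood into tissues, with ZIP14 as one of the importers. Cells balance iron by taking it up through the transferrin receptor and DMT1, storing it in ferritin and releasing it through ferroportin, and heme oxygenase frees the iron of heme.

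The tissue label was checked against marker genes before the members were described. Of 10 brown adipocyte markers 7 could be tested, and Ucp1, the uncoupling protein that defines brown fat, Elovl3 and Bmp8b were not well above background on any of the 8 arrays. The 8 skeletal muscle markers were well above background on all 8 arrays. Their summed signal, on the log2 scale, was 21.01 to 21.11 in Co mice and 20.95 to 21.08 in Pg mice, carried by probes near the top of the scale, such as Tnnt3 at 18.84 on 7 of 8 arrays, where differences between mice are hard to see. Of the 8, 6 were below 0 and 0 had a q under 0.1. Without adjustment 2 had a limma p under 0.05, beside 22.8% of all probes, and the groups did not overlap for 15.8% of all probes. Ckm (16.94 to 17.02 in Co mice and 16.77 to 16.94 in Pg mice, limma unadjusted p = 0.035, q = 0.186) and Mb (18.55 to 18.68 and 18.41 to 18.47, limma unadjusted p = 0.022, q = 0.149) were lower in every Pg mouse than in any Co mouse, and the part of muscle content in the member signals was not tested. Myh4, a fast fiber myosin, had 16.09, 16.97, 13.38 and 16.48 in Co mice and 11.38, 17.07, 17.01 and 14.38 in Pg mice. Cidea, Ppargc1a, Dio2, Prdm16, Cox8b and Zic1 were well above background in all mice, and Adrb3 in 3 Co and 2 Pg mice. The summed signal of the brown adipocyte markers was 17.95 to 18.16 in Co mice and 18.07 to 18.18 in Pg mice, and nearly all of it came from Cox8b (17.85 to 18.06 and 18.00 to 18.10). The sum is thus close to the reading of a single gene and does not measure brown adipocyte content. The values below are therefore those of a tissue piece labelled brown adipose tissue that carried muscle RNA in both groups. In such bulk samples, fewer cells of a type and less RNA per cell cannot be told apart. All Co arrays lay in row 1 and all Pg arrays in row 2 of a single slide, so slide row and treatment cannot be told apart, and the replicate number was the slide column.

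The probes on which the results turn are shown by their last 30 bases of 60, 5′ to 3′, because several genes were read by probes of different transcripts. Capitals mark AATAAA, the polyadenylation signal, which 9.77% of the 56605 probes hold (3.85% hold its reverse complement TTTATT, and 13.3% hold either). The positions are those of the whole probe in mm9, as the arrays' annotation gives them.
Mt1, NM_013602: gtacgtgaatAATAAAagcctgtttgagtc
Mt1, XM_006530752: cggaggccattgtattgtctcggggacaga
Mt2: ctcgttctccacaactttttctataaagca
Slc39a14: attttactcatagttccctttacagttcca
Slc11a2, NM_008732, probe A_51_P388737: ttgttatAATAAAgttcatgcttaatagct
Slc11a2, NM_008732, probe A_55_P2830119: gtgccagtttgggtaagattttaaggttat
Slc11a2, NM_001146161, probe A_52_P196476: acggtacttcaacagtacagtaacctgtaa
Slc11a2, both variants, probe A_52_P254298: ttgatgagaaaatccccattcctgaggagg
The 2 Mt1 probes lie at chr8:96704165-96704224 and chr8:96703844-96703903 on the plus strand, with 261 bases between them, and the Mt2 probe lies at chr8:96697371-96697430. The Slc39a14 probe lies at chr14:70703394-70703453 on the minus strand. The 4 Slc11a2 probes, in the order shown, lie at chr15:100218333-100218392, chr15:100219212-100219271, chr15:100223347-100223406 and chr15:100240516-100240575 on the minus strand.

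No member passed the thresholds for a differentially expressed gene (DEG), which were a Benjamini-Hochberg q under 0.1 and a fold change above 1.5. Of the 16 probes tested, 0 were DEGs, against 1.61% of the 33819 probes tested on the whole array (0.313% higher and 1.3% lower in Pg mice). A q under 0.1 was found for 0 of the 16, against 7.82% of all probes. The lowest member q was 0.144, in limma's fit over all probes. Without adjustment, 2 of the 16 had a p under 0.05, against 22.8% of all probes. The signals of Co and Pg mice overlapped for all 16, whereas they did not overlap for 15.8% of all probes. The fitted log2 fold change of Pg over Co was above 0 for 9 probes and below 0 for 7 (42.3% of all probes were above 0), with a median of 0.08, against a median of -0.04 over all probes. For 12 of the 16 probes the 95% interval of the change lay within the fold change limit of 1.5 in both directions. The other 4 probes, 2 of Mt1, that of Mt2 and that of Slc40a1, had wider intervals that reached past it.

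**Figure D1:**
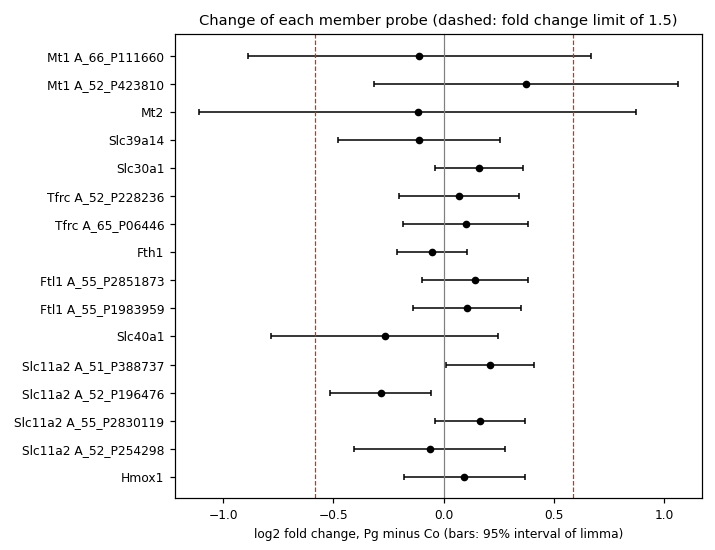
Log2 fold change, Pg minus Co, of the 16 member probes tested (points) with the 95% interval of limma (bars), and dashed lines at a fold change of 1.5. The intervals of the metallothionein probes are the widest of the 16, and 14 of the 16 intervals hold 0.

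Metallothionein mRNA differed widely from mouse to mouse within both groups. Mt1, read by the probe for NM_013602, had log2 signals of 16.78, 16.77, 16.34 and 15.40 in Co mice 1 to 4. In Pg mice 1 to 4 they were 16.38, 15.95, 16.68 and 15.82. The Pg values all lay inside the range of the Co values. The means were 16.32 ± 0.65 (SD, n = 4) and 16.21 ± 0.40 (SD, n = 4), and the log2 fold change was -0.11 with an SE of 0.34 (limma q = 0.869). The highest Co mouse had 2.61-fold the signal of the lowest, and the highest Pg mouse 1.82-fold. Mt2, the neighboring gene with the same role, had log2 signals of 15.46, 15.74, 14.95 and 13.99 in Co mice and 15.63, 14.55, 15.18 and 14.31 in Pg mice. Again the Pg values lay inside the Co range, and mouse 4 was the lowest of each group. For Mt2 the log2 fold change was -0.12 with an SE of 0.43 (limma q = 0.891), and its 95% interval ran from -1.11 to 0.87. The highest Mt2 signal was 3.36-fold the lowest in Co mice and 2.48-fold in Pg mice. The within-group SD was 0.54 for Mt1 and 0.69 for Mt2 on the log2 scale, at percentiles 93.7 and 96.3 of all probes tested, whose median SD was 0.16. Without Co mouse 4 the log2 fold changes were -0.42 for Mt1 and -0.47 for Mt2. With single mice left out the sign was reversed 3 times for Mt1 and 4 times for Mt2. The highest changes were 0.04 for Mt1, without Co mouse 1, and 0.12 for Mt2, without Co mouse 2.

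The second Mt1 probe, designed for the predicted transcript XM_006530752, gave another order of the mice. Its log2 signals were 8.39, 8.24, 8.29 and 8.89 in Co mice and 8.26, 8.35, 9.40 and 9.29 in Pg mice. The high mice here were Co 4, Pg 3 and Pg 4, of which Co 4 and Pg 4 were the lowest of their groups by the first probe. With a log2 fold change of 0.37 and an SE of 0.30 (limma q = 0.496), it had the largest fitted change among the 16 probes, which was 0.18 without Pg 3 and 0.56 without Pg 1, and without Co 2, Pg 3 or Pg 4 that of Slc40a1 was larger (-0.34, -0.37 and -0.29). The change of the difference between the 2 Mt1 probes was 0.48 with an SE of 0.50 (limma q = 0.573), so a difference between them in response was not detected.

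The zinc and iron importer Slc39a14 followed Mt1 across the mice. Its log2 signals were 10.53, 10.49, 10.15 and 9.95 in Co mice and 10.19, 10.05, 10.45 and 9.98 in Pg mice. The groups overlapped, with a log2 fold change of -0.11 and an SE of 0.16 (limma q = 0.711). Over the 8 mice, the order of Slc39a14 was that of Mt1 without exception. Pearson's r was 0.940 (exact permutation p = 0.000918, two-sided) and Spearman's rho was 1.0, with p = 4.96e-05 by exact permutation, the smallest that 40320 permutations allow. Mt1 and Mt2 had r = 0.923 (exact permutation p = 0.00136) and rho = 0.881 (p = 0.00724, adjusted p = 0.109). Mt2 and Slc39a14 had r = 0.836 (exact permutation p = 0.0160, adjusted p = 0.180) and rho = 0.881 (p = 0.00724, adjusted p = 0.109). With each group centred on its mean, r was 0.947 for Mt1 and Slc39a14, 0.922 for Mt1 and Mt2, and 0.842 for Mt2 and Slc39a14. Without Co mouse 4 and Pg mouse 4, which lay farthest from the median of Mt1, r was 0.965 for Mt1 and Slc39a14 and 0.778 for Mt1 and Mt2, and 0.677 for Mt2 and Slc39a14. Among 45 pairs of members, 3 had an adjusted p under 0.1 by Pearson's r, and these included Mt1 with Slc39a14 and Mt1 with Mt2 (exact permutation, adjusted p = 0.0307 for both). By Spearman's rho 1 of the 45 did, Mt1 with Slc39a14 (exact permutation, adjusted p = 0.00223). The groups of 4 are too small for an r within each.

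**Figure D2:**
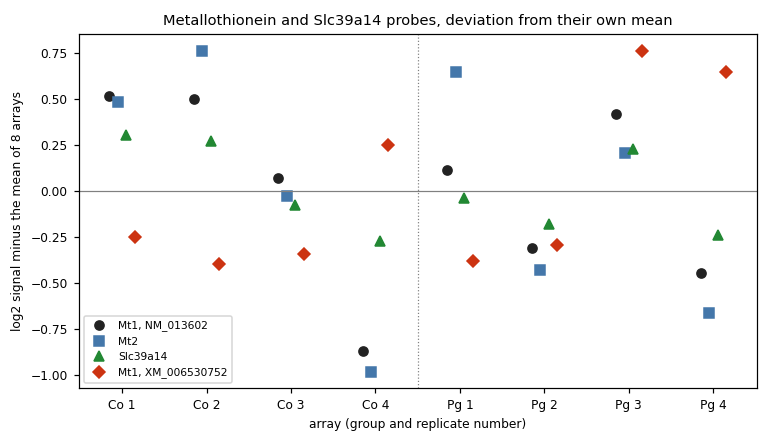
Log2 signal minus the mean of the same probe over 8 arrays, for the 2 Mt1 probes, Mt2 and Slc39a14 in each Co and Pg mouse. Mt1 (NM_013602), Mt2 and Slc39a14 were lowest in Co 4 and in Pg 4 within their groups, while the probe for XM_006530752 was high in Co 4, Pg 3 and Pg 4.

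These correlations were also read against the whole array. Of 33817 probes, 22 (0.0651%) correlated with Mt1 at least as strongly as Slc39a14 did, and 51 (0.151%) at least as strongly as Mt2. With Mt2, 304 (0.899%) correlated at least as strongly as Slc39a14. The mouse that was low in both groups was number 4, and number 4 is also a column of the slide, so the share of slide position and mouse in this order cannot be told apart.

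The promoters of Mt1 and Mt2 are shown because these genes moved together from mouse to mouse. The 250 bases before a transcript start are given on the plus strand of GRCm38.p6 from RefSeq, at chr8:94178839-94179088 for Mt1 and chr8:94172368-94172617 for Mt2. For Mt1 this is the start of the promoter entry, and RefSeq's gene begins at 94178883, inside the bases shown. Capitals mark the core of the metal response element, the DNA word that MTF1 binds, searched as TGCACNC or TGCGCNC on both strands.
Mt1: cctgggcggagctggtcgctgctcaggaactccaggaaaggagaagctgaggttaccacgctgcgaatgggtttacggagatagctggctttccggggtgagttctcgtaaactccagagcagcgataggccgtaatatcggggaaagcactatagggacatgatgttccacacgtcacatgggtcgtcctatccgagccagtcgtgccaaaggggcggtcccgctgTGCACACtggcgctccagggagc
Mt2: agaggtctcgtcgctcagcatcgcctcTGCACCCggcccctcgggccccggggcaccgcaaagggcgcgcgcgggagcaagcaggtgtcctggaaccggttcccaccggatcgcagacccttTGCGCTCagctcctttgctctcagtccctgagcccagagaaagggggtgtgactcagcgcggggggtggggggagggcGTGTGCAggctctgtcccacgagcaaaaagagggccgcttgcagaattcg
In the window from 250 bases before to 50 bases after the start, Mt1 held 3 matches, of which 1 lies in the bases shown, and Mt2 held 4, of which 3 lie in the bases shown. Of 32851 such windows of the genome, 25.7% held a match, 1.97% at least 3 and 0.518% at least 4. Of the 6 members with a promoter entry, which had 8 windows, 4 windows held a match. Slc30a1 had 2, and 1 of the windows of Tfrc had 2 that overlap. Fth1 and Ftl1 had an entry and no match. Slc39a14, Slc40a1, Slc11a2 and Hmox1 had no entry. A match is a description of letters and was not tested as a binding site.

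Slc30a1, the plasma membrane exporter that lowers cell zinc and is itself a metal-induced gene, had log2 signals of 8.83, 8.57, 8.59 and 8.68 in Co mice and 8.78, 8.88, 8.68 and 8.95 in Pg mice. Pg 2 and Pg 4 lay above all Co mice, and the groups overlapped. The change was 0.16 on the log2 scale with an SE of 0.09 (limma q = 0.317), and its 95% interval ran from -0.04 to 0.36.

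**Figure D3:**
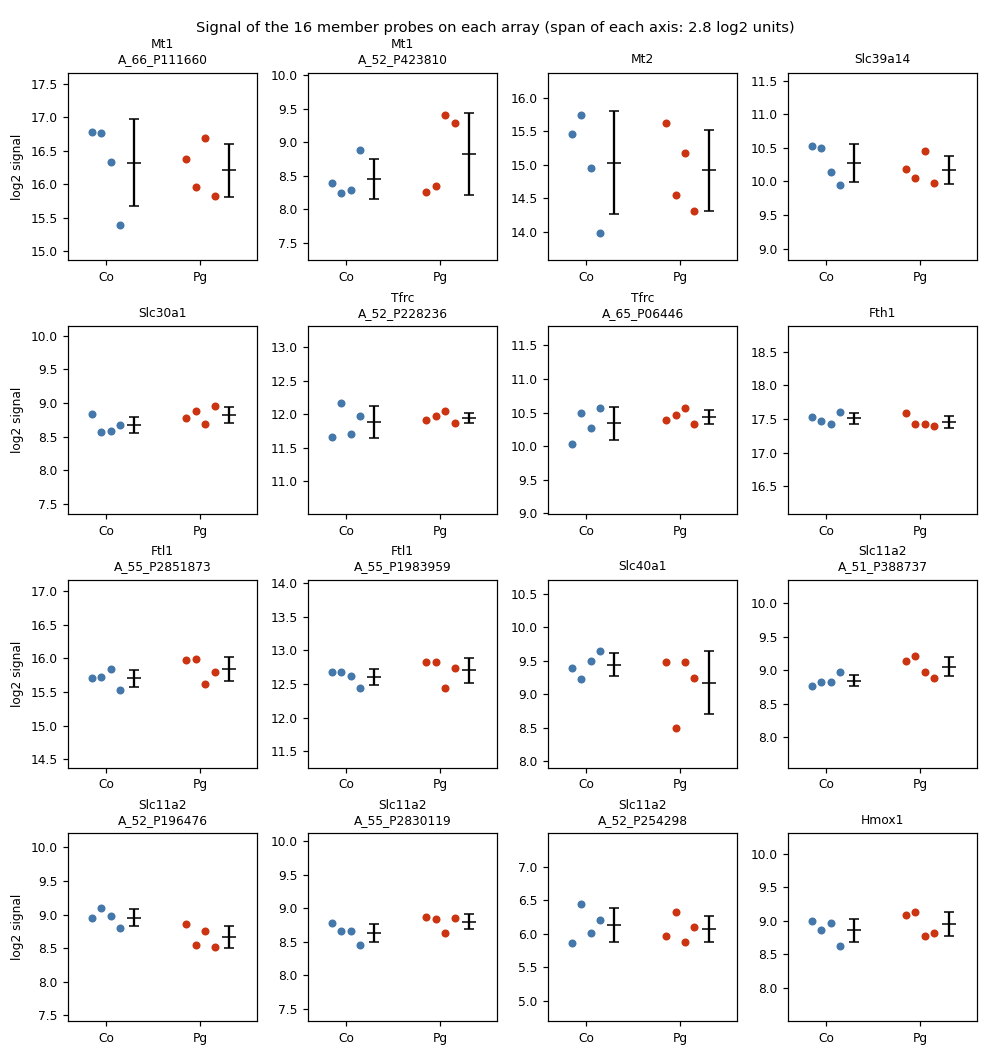
Log2 signal of the 16 member probes in each mouse (points) with the mean ± SD of each group (bars, n = 4), each panel spanning 2.8 log2 units. The groups overlap in every panel, and the points of Mt1 and Mt2 are spread more widely than those of Fth1.

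Among the genes of iron uptake, Tfrc, which brings transferrin-bound iron into the cell, was read by a pair of probes that gave like changes. The probe A_52_P228236 had log2 signals of 11.66, 12.17, 11.71 and 11.97 in Co mice and 11.91, 11.97, 12.04 and 11.87 in Pg mice. The probe A_65_P06446 had 10.03, 10.50, 10.27 and 10.56 in Co mice and 10.39, 10.46, 10.57 and 10.34 in Pg mice. By both probes the Pg mice lay close together, with an SD of 0.07 and 0.10 against 0.24 and 0.24 in Co mice, a difference in spread that was not tested. The log2 fold changes were 0.07 (limma q = 0.755) and 0.10 (limma q = 0.666).

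Slc11a2, which moves iron across membranes, was the member with the lowest q values, and its probes went in opposite directions. The gene is known to give transcripts with alternative last exons, one with and one without an iron-responsive element. The probe for variant 1 (NM_001146161, A_52_P196476) had log2 signals of 8.95, 9.10, 8.97 and 8.80 in Co mice and 8.85, 8.55, 8.75 and 8.52 in Pg mice. Pg 2, Pg 3 and Pg 4 were below all Co mice and Pg 1 was not. Variant 1 had a log2 fold change of -0.29 with an SE of 0.10 (limma unadjusted p = 0.0199, q = 0.144). The first probe for variant 2 (NM_008732, A_51_P388737) had 8.77, 8.82, 8.82 and 8.97 in Co mice and 9.14, 9.21, 8.98 and 8.89 in Pg mice, and a change of 0.21 on the log2 scale (limma unadjusted p = 0.0432, q = 0.204). The other variant 2 probe (A_55_P2830119) had 8.77, 8.66, 8.66 and 8.45 in Co mice and 8.87, 8.84, 8.63 and 8.85 in Pg mice, and a change of 0.16 on the log2 scale (limma q = 0.312). Here 3 Pg mice lay above all Co mice and Pg 3 lay below 3 of them. The probe shared by both variants (A_52_P254298) had 5.86, 6.45, 6.00 and 6.20 in Co mice and 5.96, 6.32, 5.87 and 6.10 in Pg mice, and a change of -0.06 on the log2 scale (limma q = 0.825).

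The difference between the variant probes within each mouse was then compared, a comparison chosen after the values were seen. The variant 2 probe A_51_P388737 minus the variant 1 probe was -0.18, -0.28, -0.15 and 0.17 log2 units in Co mice and 0.29, 0.66, 0.23 and 0.37 in Pg mice. The groups did not overlap, and the change was 0.50 with an SE of 0.13 (limma q = 0.0729 over 17437 within-gene probe pairs). The variant 1 probe minus the variant 2 probe A_55_P2830119 was 0.18, 0.44, 0.31 and 0.35 in Co mice and -0.01, -0.29, 0.12 and -0.33 in Pg mice. These groups did not overlap either, and the change was -0.45 with an SE of 0.12 (limma q = 0.0731). Both differences share the single variant 1 probe and are not independent of each other. Of all within-gene pairs, 13.1% had a q under 0.1 and 19% did not overlap, and of the 9 member pairs 2 did, both between the Slc11a2 variants. With 2 of 9, the member pairs are near these shares. The variant 1 signal minus the mean of both variant 2 probes was 0.21 ± 0.11 (SD, n = 4) in Co mice and -0.26 ± 0.19 in Pg mice, given with no test since both differences it averages were already separate between the groups. The q of the first difference rose above 0.1 without Co 1, Co 2, Co 3, Pg 1, Pg 2 or Pg 4 (up to 0.158, without Co 2), and that of the second without Co 2, Co 3, Co 4, Pg 1, Pg 2 or Pg 4 (up to 0.158, without Co 2), while the size stayed between 0.40 and 0.59 and between -0.53 and -0.38.

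**Figure D4:**
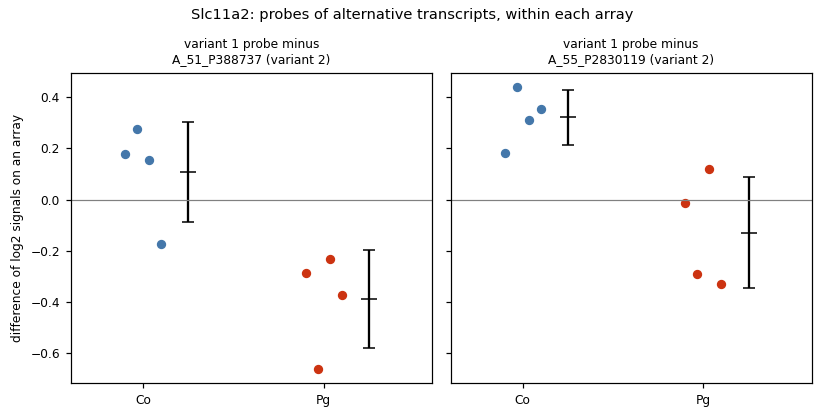
Log2 signal of the Slc11a2 variant 1 probe minus that of each variant 2 probe on the same array, for Co and Pg mice (points) with the mean ± SD (bars, n = 4). In both panels every Pg mouse lies below every Co mouse.

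Of the ferritin subunits, which store iron, Fth1 differed less from mouse to mouse than most genes and Ftl1 about as much as the median probe. Fth1, the heavy subunit that oxidizes iron on entry, had log2 signals of 17.54, 17.47, 17.43 and 17.61 in Co mice and 17.59, 17.43, 17.43 and 17.39 in Pg mice. Its log2 fold change was -0.05 with an SE of 0.07 (limma q = 0.687), and the 95% interval from -0.21 to 0.11 was the narrowest of the members. Fth1 lay near the top of the scale, where differences between mice are hard to see. Co 3, Pg 2 and Pg 3 had the same value after quantile normalization. With 75th percentile scaling the change of Fth1 was -0.15 (limma q = 0.263). Ftl1, the light subunit, had 15.71, 15.73, 15.84 and 15.53 in Co mice and 15.97, 15.99, 15.62 and 15.80 in Pg mice by the probe A_55_P2851873, and its change was 0.14 on the log2 scale (limma q = 0.459). The other Ftl1 probe, A_55_P1983959, ran along 482 bases of the genome and is also listed for other ferritin transcripts, so its signal may come from more than 1 gene. It had 12.67, 12.68, 12.62 and 12.44 in Co mice and 12.82, 12.83, 12.43 and 12.74 in Pg mice, and a change of 0.10 on the log2 scale (limma q = 0.594). Both probes had the same highest and lowest Pg mice.

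Slc40a1, the only known cellular iron exporter and a gene that macrophages express strongly, had log2 signals of 9.39, 9.23, 9.50 and 9.65 in Co mice and 9.47, 8.49, 9.49 and 9.24 in Pg mice. Pg mouse 2 stood below the others. Ferroportin had a log2 fold change of -0.27 with an interval from -0.78 to 0.25 (limma q = 0.513), and it was -0.04 without that mouse. The summed macrophage markers ran from 12.98 to 13.76 in Co mice and from 12.98 to 14.69 in Pg mice on the log2 scale, 6 of 8 were higher and 0 had a q under 0.1, and their part in the Slc40a1 signal was not tested. The Slc40a1 probe A_55_P2620111, for ENSMUST00000186755, did not rise well above background in any mouse.

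Hmox1, the stress-induced enzyme that opens heme and frees its iron, had log2 signals of 8.99, 8.85, 8.97 and 8.62 in Co mice and 9.09, 9.13, 8.76 and 8.82 in Pg mice. The groups overlapped, with a log2 fold change of 0.09 and an interval from -0.18 to 0.37 (limma q = 0.673). Hmox1 followed Ftl1 across the mice, with r = 0.905 (exact permutation p = 0.00248, adjusted p = 0.0372 over the 45 pairs) and rho = 0.833 (p = 0.0154, adjusted p = 0.173). With each group centred, r was 0.910, and without Co 4 and Pg 2 it was 0.766. Of 33817 probes, 42 (0.124%) correlated with Ftl1 at least as strongly. The other Hmox1 probe, A_52_P602559 for ENSMUST00000160341, was not well above background in any of the 8 mice.

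Around the members, 101 further genes in 7 lists of zinc, iron, heme, NRF2 and glucocorticoid or interleukin-6 biology were described, of which 99 were on the array and 84 tested. By the brightest probe of each gene, 1 rose and 4 fell with a q under 0.1, beside 1.82% and 6% of all probes, and 1 was a DEG, beside 1.61% of all probes. Without adjustment, 12 of the 84 had a limma p under 0.05, beside 22.8% of all probes. A further 5 genes, Slc30a5, Cp, Alas1, Il6ra and Fkbp5, had a q under 0.1 by another of their probes. The median log2 fold change was -0.02, with 39 genes above 0 and 45 below, and over all probes 42.3% were above 0, to be held beside the counts of direction that follow.

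Among zinc genes, Slc30a4 (ZnT4), an exporter into vesicles, rose from 10.89, 10.83, 10.79 and 10.96 in Co mice to 11.11, 11.14, 11.12 and 11.19 in Pg mice, a log2 fold change of 0.27 with an SE of 0.06 (limma q = 0.0628). Its q stayed under 0.1 only without Co 4 or Pg 3 when single mice were left out, and was 0.206 with no normalization. Slc30a9 (ZnT9), a mitochondrial zinc exporter, fell from 11.41, 11.52, 11.43 and 11.49 to 11.30, 11.21, 11.31 and 11.23, by 0.20 on the log2 scale (limma q = 0.0923), with a q of 0.160 by normexp and 0.185 by the median signal, and above 0.1 without any 1 of the 8 mice. In both genes the groups did not overlap. Slc30a4 and Slc30a9 were 2 of the 9 exporter and regulator genes tested, which had a median of 0.03. Of the 10 zinc importers tested, 6 were above 0 and 0 had a q under 0.1, and the largest changes among those above background in all mice were Slc39a2 at 0.37 (limma q = 0.512) and Slc39a9 at -0.27 (limma q = 0.179). Slc39a8, above background on 4 arrays, was at -0.41 (limma q = 0.398). Slc39a4, above background in 0 Co and 3 Pg mice and not tested, was at most 3.89 in Co mice and had 4.89, 6.28, 3.38 and 6.45 in Pg mice. Slc39a5, above background in 2 Co and 0 Pg mice and also not tested, had means of 3.56 and 3.22.

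In iron uptake and release, Hamp2, a gene of the hepcidin family, fell from 5.48, 5.28, 5.69 and 5.47 to 4.55, 4.78, 4.92 and 5.01. It was near background, above it in 4 Co mice and 3 Pg mice, and the change was -0.67 with an SE of 0.12 (limma q = 0.0517), the only DEG of the lists. The size depended on the processing, with -0.22 by normexp, -0.24 by the median signal, -0.53 by 75th percentile scaling, -0.48 with no normalization and -0.31 in the authors' table (limma q = 0.103), and Hamp2 was no DEG in any of these. It also was none without Co 3, Co 4, Pg 1 or Pg 2. Hamp, which encodes hepcidin itself, was well above background in 0 Co and 2 Pg mice and was not tested, with 2.03, 2.65, 2.49 and 2.21 in Co mice and 9.27, 2.10, 4.02 and 4.56 in Pg mice, of which Pg 1 was the highest. Of the 14 genes tested in that list, 7 were above 0 and 7 below, among them the iron carrier Trf at 0.31 (limma q = 0.555) and Bmp6 at -0.21 (limma q = 0.415). Among cellular iron control genes, 11 of 13 were below 0, with a median of -0.10, and 0 had a q under 0.1. Nfs1, which supplies sulfur for iron-sulfur clusters, was at -0.15 (limma q = 0.169). In the heme list Blvra (biliverdin reductase) fell from 9.64, 9.66, 9.68 and 9.63 to 9.37, 9.40, 9.50 and 9.45, by 0.22 with an SE of 0.05 (limma q = 0.0714), and 11 of 16 genes were below 0. With single mice left out, the q of Blvra stayed under 0.1 only without Pg 3, and it was 0.123 with the authors' table and 0.284 with no normalization. Alas2, the first enzyme of heme synthesis in red cell precursors, had 11.43, 11.99, 12.36 and 11.67 in Co mice and 10.89, 11.79, 9.87 and 12.38 in Pg mice (limma q = 0.50). Alas2 was itself among the 8 red blood cell markers, whose summed signal ran from 18.81 to 19.52 in Co mice and from 17.73 to 19.56 in Pg mice, with 7 of 8 below 0 and 0 with a q under 0.1. The hemoglobin gene Hba-a1 had 17.59, 18.00, 18.28 and 17.86 in Co mice and 17.35, 17.85, 16.57 and 18.34 in Pg mice, the same order of mice within each group as Alas2. Slc25a37, the mitochondrial iron importer of red cells, was likewise lowest in Pg 3 at 9.99 and highest in Pg 4 at 11.47 (limma q = 0.609). The part of red cell content in these genes was not tested.

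Haptoglobin, Hp, which binds free hemoglobin, was highest in Pg 1 and next highest in Co 2. It had 10.83, 12.63, 11.15 and 10.89 in Co mice and 14.49, 11.02, 11.54 and 10.76 in Pg mice. Its log2 fold change of 0.58 (limma q = 0.717) rested on Pg 1, and without that mouse it was -0.27. The adipocyte markers Adipoq, Plin1 and Cidec were also highest in Co 2 and Pg 1, and the part of adipocyte content in Hp was not tested. Of 11 NRF2 and BACH1 genes tested, 9 were above 0 with a median of 0.10, and 0 had a q under 0.1. Maff, a small partner of NRF2, was at 0.26 (limma q = 0.572) and the NRF2 target Nqo1 at -0.22 (limma q = 0.330). Of the 11 glucocorticoid and interleukin-6 response genes tested, 5 were above 0 and 6 below, with a median of -0.02. Tsc22d3, a glucocorticoid target, fell from 14.27, 14.26, 14.00 and 14.46 to 13.42, 13.66, 13.92 and 13.89, by 0.53 with an SE of 0.14 (limma q = 0.0866), and its other tested probe also fell. With single mice left out, its q stayed under 0.1 only without Pg 3, and it was 0.136 with no filter and 0.175 with no normalization. Fkbp5, another such target, had a log2 fold change of -0.61 (limma q = 0.161), and of its other 2 tested probes, both below 0, 1 had a q under 0.1.

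**Figure D5:**
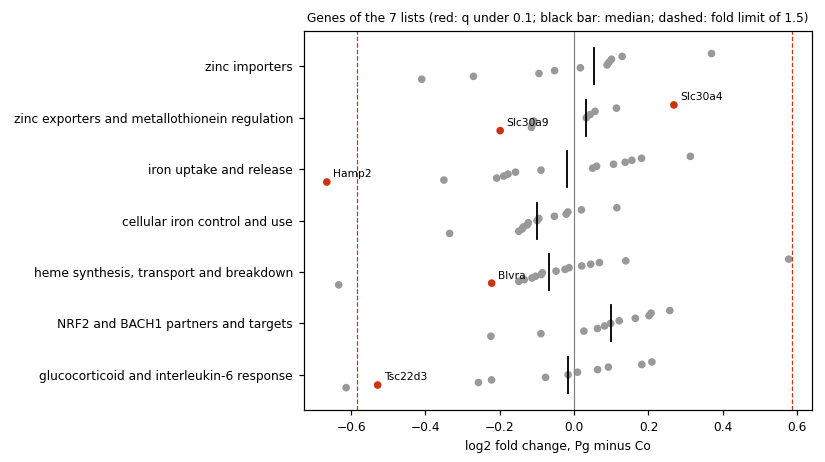
Log2 fold change, Pg minus Co, of the 84 genes tested in the 7 lists around the members (points), with the median of each list (black bars) and dashed lines at a fold change of 1.5. The red points, with a q under 0.1, are Slc30a4 above 0 and Slc30a9, Hamp2, Blvra and Tsc22d3 below 0.

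Neutrophil and adipocyte markers were read in the same mice. The neutrophil markers summed to 15.29 to 15.62 in Co mice and 15.54 to 15.75 in Pg mice on the log2 scale, all 6 that were tested were above 0 and 0 had a q under 0.1. Nearly all of this sum came from Csf3r (15.26 to 15.59 and 15.51 to 15.73), so the sum does not measure neutrophil content. S100a8, a calprotectin subunit, had 4.56, 5.20, 5.33 and 5.09 in Co mice and 8.59, 8.32, 5.18 and 6.76 in Pg mice (4.48-fold, limma unadjusted p = 0.016, q = 0.132). S100a9, its partner, had 6.60, 6.51, 7.27 and 6.57 in Co mice and 10.56, 10.17, 6.99 and 7.38 in Pg mice (4.10-fold, limma unadjusted p = 0.039, q = 0.195). Both were highest in Pg 1 and Pg 2, and Retnlg was well above background in 2 Pg mice and in no Co mouse. Ngp was not well above background in any mouse. Ly6g (1.07-fold, limma q = 0.731), Camp (1.01-fold, limma q = 0.941) and Mpo (1.17-fold, limma q = 0.493) changed less than S100a8 and S100a9. The adipocyte markers summed to 17.64 to 17.83 in Co mice and 17.57 to 17.79 in Pg mice. Nearly all of this sum came from Lpl (16.85 to 17.15 and 16.80 to 16.94) and Fabp4 (16.20 to 16.43 and 16.21 to 16.57). Adipoq (9.61 to 11.31 and 9.84 to 11.09), Plin1 (6.53 to 7.67 and 6.69 to 8.27) and Cidec (10.07 to 12.25 and 9.91 to 11.81) spread more widely. Each was highest in Co 2 and Pg 1. Lep, Pparg and Lipe spread less than these. The part of neutrophil and adipocyte content in the member signals was not tested. Fewer probes were well above background on the Pg arrays (31132 to 34064) than on the Co arrays (34760 to 35831).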

How the data were processed

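Total RNA of 8 mice was read on 1 slide of Agilent one-color arrays, 1 array per mouse. As deposited, the files of Feature Extraction 11.0.1.1 hold the Cy3 intensity of each spot, background-subtracted and detrended, beside the raw signals and marks for background, saturation and outliers. A second deposited file, with 28067 entries, gives the authors' quantile-normalized log2 values and served as an alternative. Its columns of fold changes, p-values and q-values are the authors' own comparison and were not used. Files were read in R 4.3.3 with the data.table package (version 1.17.8). Spots with an outlier mark (90 to 150 of 59305 per array) were left out, intensities were averaged per probe, and quantile normalization over the 8 arrays, a floor of 1 and log2 transformation followed. Probes well above background on at least 4 arrays (33819 of 56605) entered limma 3.58.1 (lmFit, eBayes, two-sided), and q is the Benjamini-Hochberg value over all of them. DEGs needed q below 0.1 and more than 1.5-fold change, the limits of the study's methods. The fit was tested on simulated data. Precision is limited by the number of arrays, 4 per group.

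The members and lists were chosen with earlier results of these data known. For lists and correlations the brightest probe stood for a gene. Every member was described, and of each list the genes with a q under 0.1 (at most 5) and the 2 with the largest fitted change among those above background on all 8 arrays were named. Correlations over the 8 mice used exact permutations (scipy 1.17.1). Comparisons of probes within a gene were added after the data were seen. Promoters came from RefSeq (GRCm38.p6), and probe positions from the arrays' annotation (mm9), and the builds were not mixed. Alternatives were other background corrections, scalings and filters, the authors' table, the replicate number as a block, and each array left out in turn.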

Additional observations from a re-analysis of the deposited data

Results flagged for a closer look

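In 2 of 64 groups of 4 mice checked, a single mouse stood apart from the other three by Dixon's test, and chance gives about 1 in 20 groups. For Slc11a2, the variant 2 probe A_55_P2830119 was 8.63 on the log2 scale in Pg mouse 3, and 8.84 to 8.87 in the others. For Bmp6, a signal that raises hepcidin, Pg mouse 3 was at 9.85 and the others at 9.41 to 9.44. The log2 fold change of Bmp6 was -0.21 (limma q = 0.415).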

How the results depend on the processing

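No member probe had a q under 0.1 under any of the alternatives run (12 member probes were in the authors' table), with the lowest q between 0.122 (probes above background on all 8 arrays) and 0.344 (no normalization). The median member change was 0.03 to 0.12 with each array left out. The count of DEGs over all probes was 546 (106 higher and 440 lower). It was 94 (66 and 28) with normexp, 108 (75 and 33) with the median signal, 283 (137 and 146) with 75th percentile scaling, 27 (20 and 7) with no normalization, 372 (82 and 290) with no filter, 318 (107 and 211) with probes above background on all 8 arrays, and 106 (60 and 46) with the values of the authors' table, and it ran from 3 (without Co 3) to 697 (without Pg 3) with an array left out. The 5 list genes with a q under 0.1 became 0 with no normalization, 3 with no filter and 3 with the authors' table (5 with normexp, where Gclc took the place of Slc30a9, and 5 with the median signal, where Fkbp5 did), and 0 (without Co 3 or Pg 2) to 6 (without Pg 3) with an array left out. Fkbp5 had a q of 0.0954 with the median signal. The cause was not tested.

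The fitted change of the Slc11a2 probe A_52_P254298 was 0.054 with 75th percentile scaling and 0.10 with no normalization. That of Fth1 was 0.0031 with the authors' table, -0.15 with 75th percentile scaling and -0.10 with no normalization. With an array left out, the change ran from -0.42 to 0.042 for Mt1 (A_66_P111660), -0.47 to 0.12 for Mt2, -0.15 to 0.042 for A_52_P254298, -0.0010 to 0.17 and -0.0042 to 0.17 for the Tfrc probes and -0.27 to 0.99 for Hp. The other member changes kept their sign but not their size, such as 0.014 to 0.15 for Hmox1, -0.22 to -0.029 for Slc39a14, 0.048 to 0.20 for Ftl1 (A_55_P1983959) and 0.18 to 0.56 for Mt1 (A_52_P423810). Among list genes with no call it ran from 0.082 to 0.52 for Trf, -0.31 to -0.11 for Bmp6, 0.054 to 0.42 for Maff, -0.28 to -0.095 for Nqo1, 0.10 to 0.55 for Slc39a2, -0.61 to -0.11 for Slc25a37 and -1.02 to -0.18 for Alas2. The deviations of mice with the same replicate number correlated with r of 0.06, -0.03, -0.07 and 0.18 for numbers 1 to 4 (at most 0.04, 0.13, 0.06 and 0.01 with another number), not all above 0.1, so the numbers were not taken as pairs. With the replicate number as a block, 0 probes were DEGs, 0 list genes had a q under 0.1, and the Slc11a2 differences had q = 0.141 and 0.149. All arrays lay on 1 slide, so a block for the slide was not run. Signal over background limits the 2 member probes that were not tested and Hamp2.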
